A study of Mus musculus with 8 samples.

Results

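Col1a1, Col1a2, Dcn, Aebp1 and Rcn3 are genes of type I collagen and of its assembly, described here by the 5-hydroxymethylcytosine (5hmC) signal that the authors deposited over each gene in mouse myoblasts. They are 5 of the 273 genes in the deposited tables and 5 of the 220 genes that the authors marked UP, the other 53 being marked DOWN. The 5 were chosen from these same tables with their signal in Psat1KO and CTRL cells already known, so their levels, ratios and profiles are given as a description and no test of them is reported. How the marks were given is not stated in the sources used here.

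The cells were primary myoblasts, the proliferating precursors of muscle fibres, grown from hindlimb muscles in Ham's F-10 with horse serum and bFGF. Psat1KO cells carried 1 copy of a Pax7 CRE allele (Pax7 CRE+/-; Psat1fl/fl), and CTRL cells carried none (Pax7 +/+; Psat1fl/fl). Pax7 is a gene of muscle stem cells and their progeny, the cells in which such an allele makes Cre. Both genotypes were homozygous for the floxed Psat1 allele, so effects of the Pax7 CRE allele and of the loss of Psat1 cannot be told apart. The series holds 8 samples, with 2 libraries of immunoprecipitated DNA and 2 of input DNA per genotype. Only the 4 immunoprecipitated libraries are reported here, and the 4 input libraries were not analysed here. Nothing in the labels says that the 2 libraries of a genotype came from separate animals or cultures, and the age of the animals is not given, so the spread between libraries may be technical. Psat1 itself is not among the 273 genes, so its loss was not checked, and the tables hold no RNA against which the cell type could be checked.

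Type I collagen, the main fibrillar collagen of skin, bone, tendon and the connective tissue of muscle, is a triple helix of alpha1 chains, encoded by Col1a1, and an alpha2 chain, encoded by Col1a2. The chains fold in the endoplasmic reticulum and, after secretion and trimming, assemble into fibrils whose width and spacing depend on bound proteoglycans and other matrix proteins. In muscle most collagen is made by fibroblast-like interstitial cells, and cultured myoblasts also make some. 5hmC is the oxidised form of methylated cytosine produced by TET enzymes, which need alpha-ketoglutarate, and PSAT1 is an enzyme of serine synthesis that releases alpha-ketoglutarate.

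In mammalian cells 5hmC lies almost entirely where C is followed by G, so the start regions of the members are shown with each CG in capitals. RefSeq promoter sequences (GRCm38.p6, 250 bases before to 50 bases after the gene start, 5′ to 3′ on the gene's own strand) were matched for 3 of the 5 members, Col1a2 (chr6:4505368-4505667, plus strand), Aebp1 (chr11:5861616-5861915, plus strand) and Rcn3 (chr7:45092164-45092463, minus strand). The start used for Rcn3 lies 109 bases inside the outermost bound of the gene given below, while those of Col1a2 and Aebp1 are the gene bounds.
Col1a2: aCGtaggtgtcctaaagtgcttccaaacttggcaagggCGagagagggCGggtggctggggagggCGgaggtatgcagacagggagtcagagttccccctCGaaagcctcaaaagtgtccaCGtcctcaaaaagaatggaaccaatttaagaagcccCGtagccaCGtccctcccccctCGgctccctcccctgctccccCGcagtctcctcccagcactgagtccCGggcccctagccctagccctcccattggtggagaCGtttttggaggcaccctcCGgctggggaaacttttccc
Aebp1: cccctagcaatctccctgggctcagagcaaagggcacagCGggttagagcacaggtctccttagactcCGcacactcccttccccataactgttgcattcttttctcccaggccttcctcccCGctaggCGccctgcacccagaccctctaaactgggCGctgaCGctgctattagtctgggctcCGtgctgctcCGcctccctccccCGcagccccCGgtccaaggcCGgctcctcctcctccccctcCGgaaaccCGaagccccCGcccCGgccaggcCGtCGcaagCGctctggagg
Rcn3: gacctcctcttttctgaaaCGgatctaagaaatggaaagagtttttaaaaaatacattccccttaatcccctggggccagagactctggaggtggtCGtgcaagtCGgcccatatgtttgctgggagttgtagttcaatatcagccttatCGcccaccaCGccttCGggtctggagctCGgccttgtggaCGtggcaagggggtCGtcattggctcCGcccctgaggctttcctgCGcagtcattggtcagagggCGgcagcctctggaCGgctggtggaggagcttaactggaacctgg
Aebp1 held 18 CGs in these 300 bases, a count reached by 29.7% of 32851 mouse promoters of the same length. Col1a2 and Rcn3 held 13 CGs each, reached by 37.9% of promoters, and the median promoter held 7. All 3 therefore carried more CGs than the median promoter without standing at the upper end. The letters CCAAT, read on both strands (as CCAAT or ATTGG) and found in 37.4% of all promoters, occurred at 2 places in Col1a2, at 2 places in Rcn3 and at none in this window of Aebp1. Col1a1 and Dcn are named only.

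On the GRCm38 annotation, Col1a1 spans chr11:94936224-94953042 on the plus strand (16819 bp) and Col1a2 spans chr6:4505618-4541543 on the plus strand (35926 bp). Dcn spans chr10:97479500-97518163 on the plus strand and, at 38664 bp, is the longest of the 5. Aebp1 lies on the same chromosome as Col1a1, at chr11:5861866-5872248 on the plus strand (10383 bp). Rcn3, at chr7:45082914-45092322 (9409 bp), is the shortest and the only member on the minus strand.

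The deposited signal is a coverage value per gene in consecutive bins, the same number for every gene, in 2 tables with 1 Psat1KO and 1 CTRL library each, called set 1 and set 2. The level of a gene is the mean of all its bins, in the authors' signal units, and it is not stated to be corrected for input. Most low values, 80.2% to 87.6% of them by library, were within 1% of a whole multiple of 1 step per library. If 1 read counts as 1 over the depth, per 1000000 reads, the step put the depth at 30559000 reads for Psat1KO and 22632700 for CTRL in set 1, and at 69794400 for Psat1KO and 69765600 for CTRL in set 2. The level divided by the step, called reads per bin here, was then 0.378 to 1.19 for the members in set 1 and 1.15 to 2.18 in set 2. It is not a count of separate reads, since 1 read can count in several bins. By this measure set 2 is the better measured of the 2. Levels did not scale with gene length: the median level was 0.0216, 0.0243, 0.0222 and 0.0201 in 4 groups of 55 UP genes, from the shortest genes to the longest, so levels of different genes are compared here as signal per length.

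No gene passed the test of Psat1KO against CTRL over all 273 genes (limma with Benjamini-Hochberg adjustment at 0.05, 0% called). Before adjustment, p was under 0.05 for 8 genes. No member was called. With 2 libraries against 2, an exact permutation test of a single gene cannot give a p below 0.333. What can be described is whether the libraries of the genotypes overlap. Both Psat1KO libraries lay above both CTRL libraries in 4 of the 5 members, Col1a1, Col1a2, Aebp1 and Rcn3, as they did in 16.8% of all UP genes. Both lay below in Dcn, as they did in 12.7% of UP genes. The members were picked with these levels in view, so nothing is read from those counts.

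Col1a1, the gene of the alpha1 chain, had the highest mean level of the 5. Its level was 0.0391 in Psat1KO of set 1 and 0.0286 in Psat1KO of set 2, against 0.0283 in CTRL of set 1 and 0.0265 in CTRL of set 2. One library, Psat1KO of set 1, stood apart from the other 3, and the lower Psat1KO value exceeded the higher CTRL value by only 0.000250, so the genotypes were barely separate. The DNA came from bulk cultures, so a different mix of cells and a different signal within cells cannot be told apart here or for the other members. Group means were 0.0338 ± 0.00744 in Psat1KO and 0.0274 ± 0.00130 in CTRL (SD, n = 2 each). The ratio of Psat1KO to CTRL was 1.38 in set 1 and 1.08 in set 2. On the scale of log2(signal + 0.005), which understates the change of low signals, the mean difference was 0.25, and it was 0.05 without the Psat1KO library of set 1 and 0.45 without the Psat1KO library of set 2.

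Col1a2, the gene of the alpha2 chain, had a level of 0.0299 in Psat1KO of set 1 and 0.0259 in Psat1KO of set 2, against 0.0227 and 0.0250 in CTRL of the same sets. Again Psat1KO of set 1 was the highest library, and the genotypes did not overlap. The means were 0.0279 ± 0.00282 in Psat1KO and 0.0239 ± 0.00163 in CTRL (SD, n = 2 each), with ratios of 1.32 in set 1 and 1.04 in set 2. The log2 difference was 0.19 over both sets, 0.33 within set 1 and 0.04 within set 2, and it was 0.10 without the Psat1KO library of set 1. Col1a1 was above Col1a2 in 4 of 4 libraries, by 1.06 to 1.31 times, so the order of the 2 chain genes was the same in both genotypes.

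Dcn encodes decorin, a small leucine-rich proteoglycan that binds collagen fibrils and limits their width. It was the one member with lower signal in Psat1KO. Its level was 0.0159 and 0.0164 in the Psat1KO libraries of sets 1 and 2, against 0.0213 and 0.0207 in the CTRL libraries. The 2 libraries of each genotype were close to each other and the genotypes did not overlap, but these levels rest on few reads. By the inferred depth, Dcn had 0.486 reads per bin in Psat1KO and 0.481 in CTRL of set 1. These values were nearly equal, at inferred depths of 30559000 reads in Psat1KO and 22632700 in CTRL. In set 2, at nearly equal inferred depths, Dcn had 1.15 reads per bin in Psat1KO and 1.45 in CTRL. The means were 0.0162 ± 0.000372 in Psat1KO and 0.0210 ± 0.000383 in CTRL (SD, n = 2 each), and the ratios were 0.749 in set 1 and 0.794 in set 2. The log2 difference was -0.29, and it stayed between -0.31 and -0.28 whichever library was left out.

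Aebp1 encodes a protein whose secreted form, aortic carboxypeptidase-like protein, binds fibrillar collagen and promotes its assembly. Its level was 0.0215 in Psat1KO of set 1 and 0.0180 in Psat1KO of set 2, against 0.0167 and 0.0170 in CTRL. The genotypes did not overlap, with Psat1KO of set 1 the highest library once more. The means were 0.0197 ± 0.00248 in Psat1KO and 0.0169 ± 0.000227 in CTRL (SD, n = 2 each), and the ratios were 1.28 and 1.05 in sets 1 and 2. The log2 difference was 0.17, or 0.07 without the Psat1KO library of set 1 and 0.27 without that of set 2. Its sign depended on a few bins, since the difference was -0.03 once the 5 highest bins of each gene were left out.

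Rcn3 encodes reticulocalbin 3, a calcium-binding protein of the endoplasmic reticulum lumen, where collagen chains are folded. Its level was 0.0340 in Psat1KO of set 1 and 0.0313 in Psat1KO of set 2, against 0.0247 and 0.0248 in CTRL. The CTRL libraries gave nearly the same value, and both Psat1KO libraries were above them. The closeness of the CTRL values rests on few reads, an inferred 0.560 and 1.73 per bin in sets 1 and 2. The means were 0.0326 ± 0.00195 in Psat1KO and 0.0247 ± 1.42e-05 in CTRL (SD, n = 2 each), with ratios of 1.38 in set 1 and 1.26 in set 2. The log2 difference was 0.34 over both sets, 0.39 within set 1 and 0.29 within set 2. Rcn3 was thus the only member of the 4 with higher signal in Psat1KO whose ratio exceeded 1.1 in set 2, the more deeply sequenced set.

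**Figure D1:**
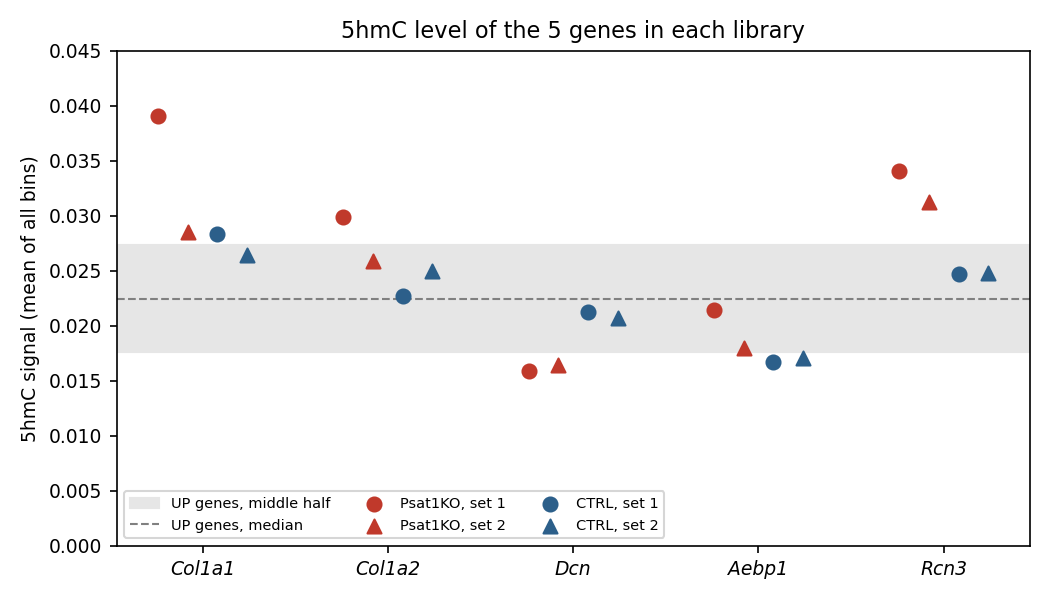
Level of 5hmC signal (mean of all bins, the authors' units, linear axis from 0) for each member in the 4 libraries, with Psat1KO in red left of CTRL in blue, circles for set 1 and triangles for set 2. The dashed line is the median of the 220 UP genes (0.0224) and the band runs between their quartiles (0.0176 and 0.0274). Psat1KO of set 1 is the highest point in 4 members, and in Dcn both Psat1KO points lie below both CTRL points.

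Set against all UP genes, whose median ratio was 0.956 in set 1 and 1.04 in set 2, the members had the following places in the order of ratios from the highest. Col1a1 was 26 in set 1 and 84 in set 2, and Col1a2 was 36 and 112 of 220. Aebp1 was 40 and 98, Dcn was 190 and 209, and Rcn3 was 28 and 22. Rcn3 was near the top and Dcn near the bottom in both sets, while the 2 chain genes and Aebp1 were nearer the middle in set 2. The middle 50% of UP genes had ratios of 0.830 to 1.20 in set 1 and 0.945 to 1.15 in set 2, so the ratios of Col1a1, Col1a2 and Aebp1 lay outside this range in set 1 and inside it in set 2. Of the 220 UP genes, 66 had a ratio above 1 in both sets and 50 a ratio below 1 in both. The UP mark therefore went with a higher mean signal in Psat1KO in some genes and a lower one in others.

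**Figure D2:**
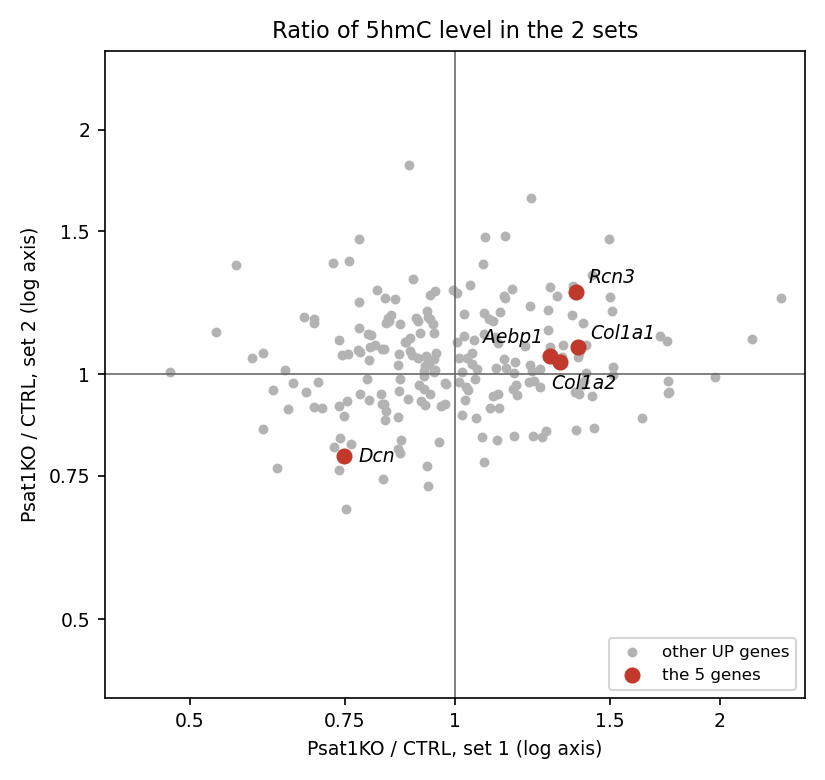
Ratio of the Psat1KO to the CTRL level in set 1 (horizontal) and set 2 (vertical), both on log axes, for the 5 members (red) and other UP genes with a mean signal of at least 0.005 (grey). Of 215 such UP genes, 213 are drawn and 2 lie outside the axes. Rcn3 is above 1 on both axes, Dcn is below 1 on both, and Col1a1, Col1a2 and Aebp1 are well above 1 only on the horizontal axis.

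In the order of mean level over the 4 libraries, Col1a1 was 36 of the 220 UP genes, Rcn3 was 45, Col1a2 was 67, Dcn was 154 and Aebp1 was 159. Col1a1 had 1.37 times the median level of UP genes, Rcn3 1.28 times and Col1a2 1.15 times, whereas Dcn and Aebp1 had 0.829 and 0.816 times. By the mean of the bins the collagen chains and Rcn3 were thus above the UP median and the 2 extracellular assembly factors below it. With the median of the bins in place of the mean, Aebp1 (place 67) stood above Col1a2. Col1a1, Col1a2 and Rcn3 exceeded Aebp1 in every library, and Rcn3 exceeded Dcn in every library. Col1a1 and Rcn3 were not separate, since Col1a1 was the higher in 3 of 4 libraries with a ratio between 0.913 and 1.15. Dcn was 0.742 and 0.916 times Aebp1 in the Psat1KO libraries of sets 1 and 2, and 1.27 and 1.22 times Aebp1 in the CTRL libraries. This order restates that Dcn was lower and Aebp1 higher in Psat1KO. The members were picked with those levels in view, so nothing more is read from it.

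The genes named here next to each member in this order did not differ from it beyond the spread of the libraries. Col1a1 (0.0265 to 0.0391 over the 4 libraries) stood between Pear1 (0.0249 to 0.0365) and Perp (0.0255 to 0.0355). Rcn3 (0.0247 to 0.0340) stood next above Eml1 (0.0278 to 0.0298). The ranges overlapped in each case. Col1a2 (0.0227 to 0.0299) stood between F11r and Syt13, Dcn (0.0159 to 0.0213) between Flywch2 and Ptprv, and Aebp1 (0.0167 to 0.0215) between Il1rl1 and Gpr149, again with overlapping ranges.

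The signal was unevenly spread along the bins. By the stretches of bins given below, the place of most signal was the same in all 4 libraries for Col1a1, Col1a2 and Rcn3. For Dcn and Aebp1 it was not. Neither the window that the bins cover nor the direction in which they run is stated in the sources used here, so a bin cannot be called the start or the end of a gene. For comparison, the signal of all UP genes was pooled with single bins limited to 0.5, a limit not applied to the members' shares. There 5 successive stretches (bins 1 to 20, 21 to 40, 41 to 60, 61 to 80, and the last 21 bins) held 21.1%, 19.6%, 19.4%, 19.1% and 20.8%, close to even.

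Col1a2 was the most lopsided member. Bins 1 to 20 held 55.3% of its signal, with a range of 53.7% to 57.5% over the 4 libraries, so the share differed little by library or genotype. Its highest run of 10 bins, bins 2 to 11, averaged 0.0919, which was 3.55 times the gene mean. Rcn3 also had its largest share in bins 1 to 20, 44.1%, but over a wide range of 31.6% to 59.3%, and bins 41 to 60 held 5.25%. The run of bins 9 to 18 of Rcn3 averaged 0.0902, or 3.14 times its gene mean. Col1a1 had the opposite shape, with 43.2% (37.3% to 51.7%) in the last 21 bins and 8.01% in bins 41 to 60. Its highest run, bins 80 to 89, averaged 0.0970, or 3.17 times the gene mean.

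For Dcn and Aebp1 the largest share in the mean of the 4 libraries was in the middle, but not in each library. Bins 41 to 60 held 25.3% of the Dcn signal (18.1% to 31.9%) and were its largest stretch in 1 library only, CTRL of set 2. They held 29.9% of the Aebp1 signal (15.7% to 39.7%), and in CTRL of set 1 bins 21 to 40 held more, 32.1%. Their highest runs were bins 47 to 56 in Dcn (0.0391, 2.10 times the gene mean) and bins 46 to 55 in Aebp1 (0.0431, 2.36 times). These runs stood less far above the gene mean than those of the other 3 members. The 10 highest bins of Dcn held 59.3% and 51.2% of its signal in Psat1KO of sets 1 and 2 and 62.8% and 53% in CTRL. Those of Col1a1 held less in each library, 41.4% and 43.8% in Psat1KO and 56% and 38.2% in CTRL. Dcn also had fewer inferred reads per bin, 0.486 and 1.15 in Psat1KO and 0.481 and 1.45 in CTRL. Col1a1 had 1.19 and 1.99 in Psat1KO and 0.641 and 1.85 in CTRL. The shares were thus not compared at equal coverage, and a difference in shape was not tested.

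**Figure D3:**
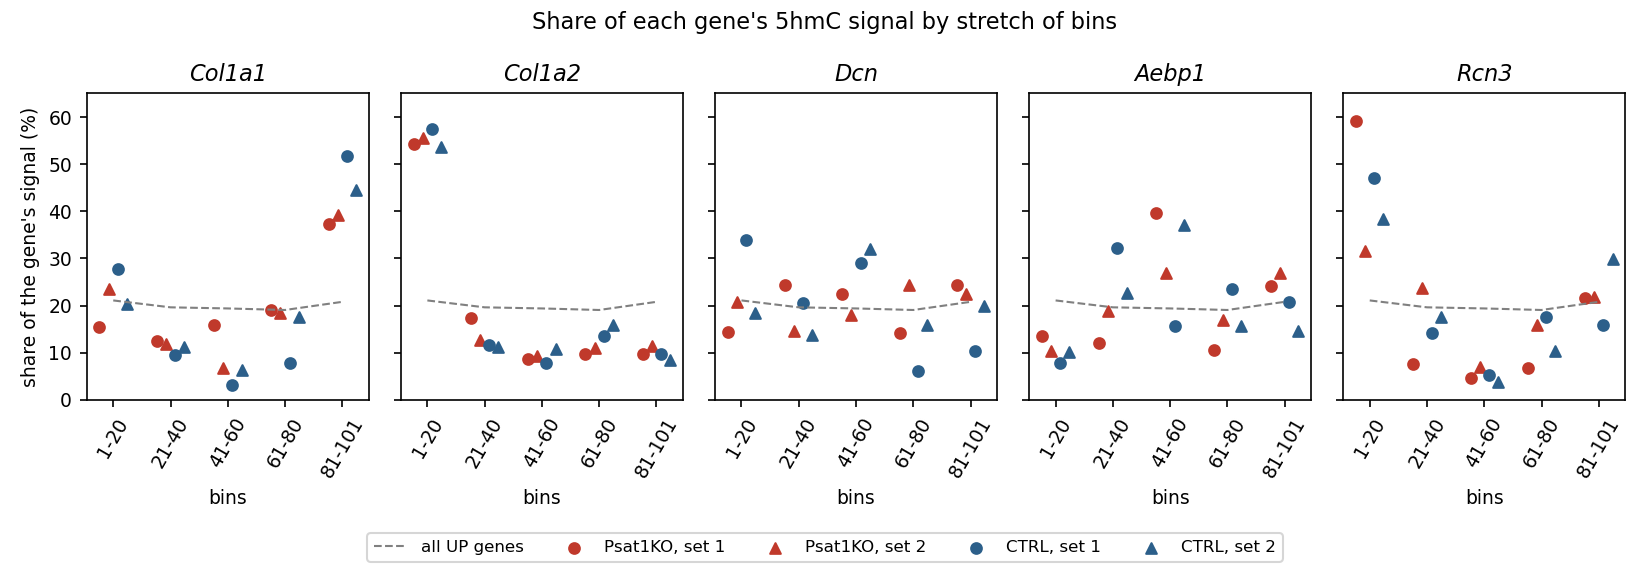
Share of each member's signal in 5 successive stretches of bins (percent, linear axis from 0), with Psat1KO in red left of CTRL in blue, circles for set 1 and triangles for set 2. The dashed line is the share of the pooled signal of all UP genes, with bins limited to 0.5, as the mean of the 4 libraries. Col1a2 holds 53.7% to 57.5% in bins 1 to 20 in all 4 libraries, Col1a1 holds 37.3% to 51.7% in the last 21 bins, and Aebp1 ranges over 15.7% to 39.7% in bins 41 to 60.

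How well a shape repeated differed between members and sets. Over the bins of a gene, Psat1KO and CTRL of set 2 correlated at r = 0.785 for Col1a2, 0.721 for Col1a1 and 0.667 for Dcn, and at 0.488 for Rcn3 and 0.374 for Aebp1. These were places 21, 48, 80, 171 and 205 among the 220 UP genes, whose median was 0.605. Whether the libraries of a set shared any processing is not stated, and the bins of a gene share reads, so these values are descriptive. In the shallower set 1 the same correlations were 0.282 for Col1a2, 0.311 for Col1a1, 0.212 for Dcn, 0.448 for Rcn3 and -0.0235 for Aebp1, with a median of 0.282. By these correlations between genotypes Aebp1 was the lowest of the 5 in both sets. Between the 2 Psat1KO libraries the order differed, with r = 0.274 for Col1a1, 0.291 for Dcn, 0.303 for Aebp1, 0.481 for Col1a2 and 0.506 for Rcn3, and between the 2 CTRL libraries r was 0.296, 0.358, 0.0536, 0.365 and 0.492 for the same genes.

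Few single bins were high in every library. One bin was among the 10 highest of all 4 libraries in each of Col1a1, Col1a2, Aebp1 and Rcn3, and 2 were in Dcn. Bin 18 of Rcn3 had 0.262 and 0.174 in Psat1KO of sets 1 and 2, against 0.396 and 0.234 in CTRL. Bin 49 of Dcn had 0.0982 and 0.143 in Psat1KO, against 0.223 and 0.174 in CTRL. At both of these bins CTRL was the higher in each set, although the gene means of Rcn3 and Dcn differed between genotypes in opposite directions. Bin 84 of Col1a1 had 0.200 and 0.101 in Psat1KO, against 0.354 and 0.0736 in CTRL. Bin 36 of Col1a2 had 0.134 and 0.101 in Psat1KO, against 0.133 and 0.128 in CTRL, nearly level in set 1 and lower in Psat1KO in set 2. Bin 55 of Aebp1 had 0.295 in Psat1KO of set 1, against under 0.001 in CTRL of that set, and 0.0143 in each library of set 2, so the highest Aebp1 value of that library did not recur.

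Where along the bins the genotypes differed was compared between the sets for each member. In Col1a1 of set 1 the signal in bins 41 to 60 was 0.0312 in Psat1KO and 0.00452 in CTRL, a ratio of 6.90, and in bins 61 to 80 it was 0.0376 in Psat1KO and 0.0111 in CTRL, a ratio of 3.41. These stretches supplied nearly equal parts, 0.00528 and 0.00526, of the difference of 0.0108 in gene level. The CTRL means of both stretches lay well under 0.0442, the step of that library, so these ratios rest on very few reads. In set 2 bins 41 to 60 had 0.00978 in Psat1KO and 0.00843 in CTRL, a ratio of 1.16, and bins 61 to 80 had a ratio of 1.13. The largest part of the set 2 difference, 64.1%, came from bins 1 to 20, with 0.0340 in Psat1KO and 0.0272 in CTRL. In set 1 these bins were lower in Psat1KO, at 0.0305 against 0.0397 in CTRL, so the place of the excess did not repeat. The tall stretch of Col1a1, the last 21 bins, had ratios of 0.994 and 0.948 in sets 1 and 2. Its highest run, bins 80 to 89, had 0.104 in Psat1KO and 0.117 in CTRL of set 1. In set 2 that run had 0.0847 in Psat1KO and 0.0817 in CTRL. In Col1a2 the main stretch, bins 1 to 20, supplied the largest positive part of the difference in both sets, with ratios of 1.24 and 1.07. The last 21 bins had ratios of 1.33 and 1.41. In set 2 the net difference of Col1a2 was only 0.000878. Bins 1 to 20 gave 0.000962 of it and the last 21 bins 0.000863, while bins 61 to 80 gave -0.00114. The set 2 excess of Col1a2 thus had no clear single place.

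For Rcn3 the excess of set 1 came from bins 1 to 20, which had 0.102 in Psat1KO and 0.0589 in CTRL, a ratio of 1.73, and supplied 91.6% of the difference. In set 2 these bins had a ratio of 1.04, and the largest part, 46.5%, came from bins 21 to 40, with 0.0373 in Psat1KO and 0.0221 in CTRL. The similar ratios of the gene means in the 2 sets, 1.38 and 1.26, thus arose from different bins. For Dcn, bins 41 to 60 were lower in Psat1KO in both sets, with ratios of 0.581 and 0.449, and bins 1 to 20 had ratios of 0.317 and 0.888. For Aebp1, bins 41 to 60 had ratios of 3.24 in set 1 and 0.767 in set 2, opposite in direction, whereas the last 21 bins had 1.48 and 1.95.

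**Figure D4:**
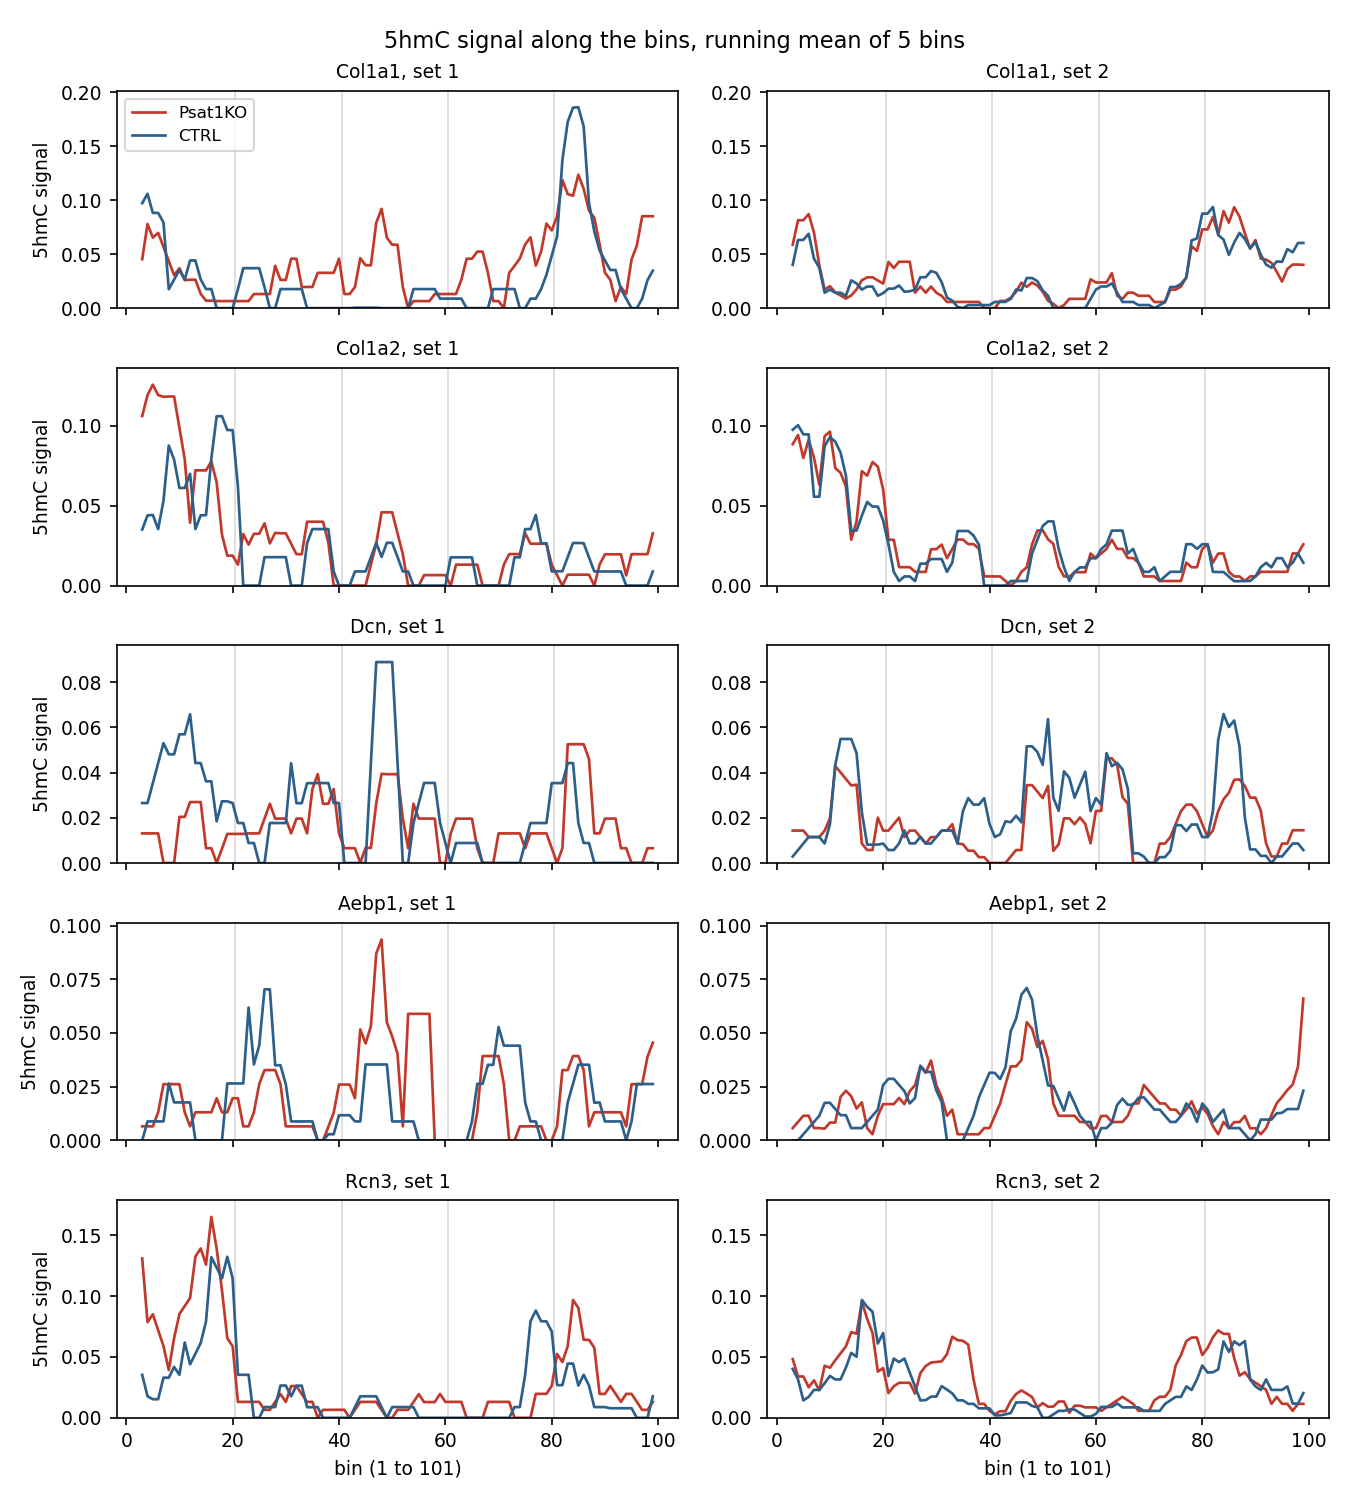
Signal along the bins (running mean of 5 bins, the authors' units, linear axes with the same scale across a row) for each member, set 1 on the left and set 2 on the right, Psat1KO in red and CTRL in blue. Over single bins r between the genotypes is higher in set 2 than in set 1 for every member. In set 2 it is 0.721 for Col1a1, 0.785 for Col1a2, 0.667 for Dcn and 0.374 for Aebp1. For Rcn3 it is only slightly higher, at 0.488 against 0.448 in set 1. The excess of Psat1KO over CTRL in the middle bins of Col1a1 is large only in set 1.

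The mean profiles of the members were little alike, though at about 1 read per bin low correlations do not show that shapes differ. The correlation of their mean profiles over the bins was highest between Col1a2 and Rcn3, at 0.353, both having high bins at the low-numbered end, and was 0.0788 between the 2 chain genes. Among the other 219 UP genes, the profiles most like a member's were those of Adm (r = 0.437) and Klhdc8a (0.359) for Col1a1, and of Tbx18 (0.400) and Ltbp2 (0.388) for Col1a2. For Dcn they were Gpr153 (0.313) and Lgals9 (0.284), for Aebp1 Ripk3 (0.352) and Fam110c (0.326), and for Rcn3 Raet1e (0.591, at a mean level of only 0.00512) and Plscr2 (0.439). These are the highest of 219 values per member with medians near 0, and most are modest.

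Of 107 genes listed for collagen and the extracellular matrix in 8 groups, 22 are in the tables, all marked UP, and 17 of these are not members. Of the 17, 5 had a ratio of Psat1KO to CTRL above 1 in both sets, 5 below 1 in both, and 7 opposite directions. Their median ratio was 0.948 in set 1 and 1.04 in set 2, beside 0.956 and 1.04 for all UP genes, so the listed genes as a set differed little from the rest. None passed the test over all genes. Both Psat1KO libraries lay above both CTRL libraries in 2 of the 17 and below them in 4, beside 16.8% and 12.7% of all UP genes. These counts are small and nothing is read from them.

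Fibrillar collagens were represented by 4 of 10 listed genes. Besides Col1a1 and Col1a2 these were Col5a3, a chain of type V collagen, with ratios of 0.864 and 0.953, and Col16a1, a fibril-associated collagen, with 1.03 and 1.05. None of the 10 other collagens listed and none of the 7 collagen receptors are in the tables. The small leucine-rich proteoglycans had 2 of 10, and these lay on opposite sides. Bgn, which encodes biglycan, the close relative of decorin, had 0.0214 and 0.0231 in Psat1KO of sets 1 and 2, against 0.0149 and 0.0175 in CTRL, ratios of 1.43 and 1.32. Both Psat1KO libraries were above both CTRL libraries for Bgn, the reverse of Dcn. Of 24 genes listed for folding and modification of collagen in the endoplasmic reticulum, only Rcn3 is in the tables.

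The group of collagen processing, assembly and crosslinking had 7 of 19 genes, Aebp1 among them. Lox, which encodes lysyl oxidase, the enzyme that crosslinks collagen and elastin, had 0.0159 and 0.0146 in Psat1KO of sets 1 and 2, against 0.0230 and 0.0160 in CTRL, ratios of 0.691 and 0.912. Loxl3, of the same enzyme family, had ratios of 0.835 and 0.902, and Tll1, a metalloproteinase of the family that trims procollagen, had 0.647 and 0.906. In these 3 genes both Psat1KO libraries lay below both CTRL libraries, as they did in 12.7% of all UP genes. For Lox the genotypes were barely separate, with 0.0159 in Psat1KO of set 1 against 0.0160 in CTRL of set 2. Loxl4 had ratios of 1.04 and 1.29 and Loxl1 0.936 and 1.17, with overlapping libraries, and Loxl2 was near the bottom of the tables, at a mean level of 0.00215.

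Collagen degradation was represented by 4 of 11 listed genes. Mmp2, a gelatinase that degrades denatured collagen, had a mean level of 0.0401, the sixth highest of the UP genes, with ratios of 1.05 and 0.988. Ctsk, the collagen-degrading cathepsin K, had 1.10 and 1.16. Timp1, an inhibitor of metalloproteinases, had 0.869 and 0.831 with both Psat1KO libraries below both CTRL libraries, and Timp3 had 1.10 and 0.939. Of 16 listed genes of elastic fibres and microfibrils 4 are in the tables. Mfap5 had ratios of 1.14 and 1.24 with no overlap of the genotypes, while Fbln2 (0.675 and 1.18), Efemp1 (1.02 and 0.890) and Ltbp2 (0.948 and 1.04) had opposite directions in the 2 sets. Ratios above and below 1 thus stood side by side within the groups with several genes.

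**Figure D5:**
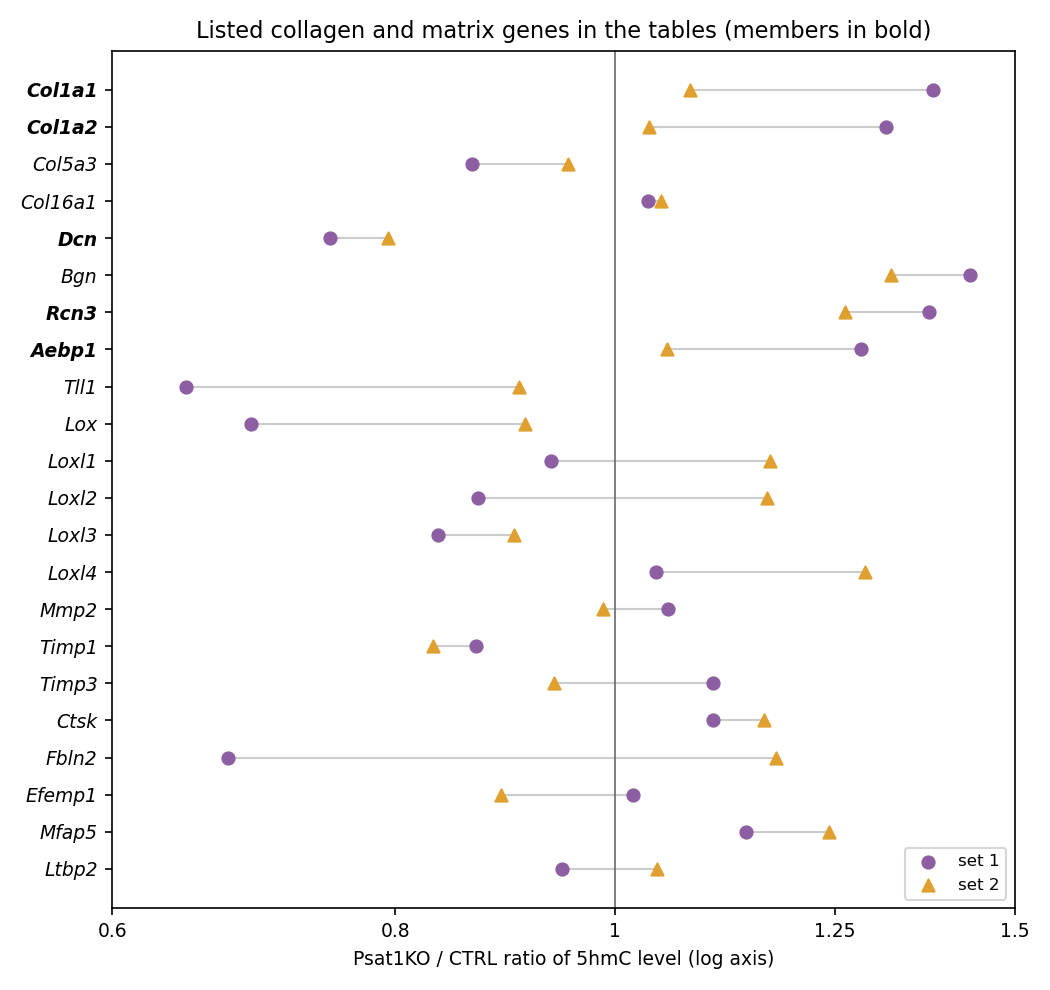
Ratio of the Psat1KO to the CTRL level (log axis) for the 22 listed collagen and matrix genes in the tables, circles for set 1 and triangles for set 2, with the 5 members in bold. Of the 17 other genes, 5 have both points right of 1, 5 have both left of 1 and 7 have 1 point on each side.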

How the data were processed

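Coverage signal per gene in bins was deposited by the authors as 2 tables, here sets 1 and 2, each with a Psat1KO and a CTRL library, for genes marked UP or DOWN. Tools named in the submitters' processing notes were MACS 1.4.2, Bowtie 1.3.1 and Trim Galore 0.6.7, with genome build mm10 and no roles. The binning tool, the window and the scaling of this signal by the authors are not stated in the sources used here. Libraries were assigned by the genotype of the block and the number of the table. RefSeq entries of GRCm38, the mm10 assembly, were found for 268 genes through the transcript and for 5 through the symbol.

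The level was the mean of the bins. All 273 genes were tested with limma 3.58.1 (R 4.3.3) on log2(signal + 0.005), 2 against 2 libraries with no covariate, with Benjamini-Hochberg adjustment. The fit was tested on simulated data. Other steps used Python 3.11.15, numpy 2.4.6, pandas 2.3.3 and matplotlib 3.10.9. Alternatives changed the pseudocount, filter, scaling, summary over bins, blocking and libraries. The members and gene lists were chosen with earlier results of these data known. Named genes were the 5 members, every listed gene in the tables, the 2 UP genes with the most similar profile per member, and the UP genes next above and below each member in level, of which 1 is not reported here.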

Additional observations from a re-analysis of the deposited data

How the results depend on the processing

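The count of genes passing the test was 0 of 273 by limma in the main setting and under each of 12 alternatives, with 8 genes at an unadjusted p under 0.05 in the main setting and 0 to 15 under the alternatives. The smallest adjusted p in any of them was 0.154, without CTRL replicate 1. The replicate block on the table number also called 0 genes, with 13 at an unadjusted p under 0.05. Nothing in the labels says that a number marks a shared animal or batch, and 2 pairs are too few to decide it. Deviations from the group means correlated at 0.369 over the 273 genes.

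The sign of the log2 difference was the same in 14 of 14 alternatives for Col1a1, Col1a2, Dcn and Rcn3, and in 12 of 14 for Aebp1. Most alternatives could not change it. Where the genotypes do not overlap, leaving out a library, taking 1 set alone or changing the pseudocount keeps the sign. Blocking, the filter and the bin limit left each member's value as it was. Aebp1 had -0.03 without the 5 highest bins of each gene (a setting chosen after seeing the data) and -0.000221 with the median of the bins. By the median of the bins Col1a1 and Col1a2 were also close to 0, at 0.00332 and 7.59e-05. That median was near 0 for many genes, since 67.6% and 72.1% of bins in Psat1KO and CTRL of set 1 were under 0.001. It put Aebp1 at place 67 and Rcn3 at 9 in the order of levels, against 159 and 45 by the mean, put Col1a2 below Aebp1, and gave Dcn a log2 difference of -0.92. With a pseudocount of 1 every member's difference was close to 0, the largest being 0.011 for Rcn3. Leaving out a library gave 0.05 to 0.45 for Col1a1, 0.10 to 0.27 for Col1a2, 0.07 to 0.27 for Aebp1 and 0.29 to 0.39 for Rcn3. With libraries scaled to their median the differences were 0.19, 0.12, -0.35, 0.11 and 0.28 for Col1a1, Col1a2, Dcn, Aebp1 and Rcn3. At about 1 read per bin, gene levels, and even more so differences between stretches of bins, rest on few reads.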
